A study of Mus musculus with 24 samples.

Results

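The genes described here are 7 mouse genes that respond to fatty acids in liver: the acyl-CoA thioesterases Acot1, Acot2, Acot3 and Acot4, the kinase gene Pdk4, the pantetheinase gene Vnn1 and the secreted lipase inhibitor gene Angptl4. They were taken by symbol from tables of 55421 genes. All 7 were found, and all 7 were among the 13847 genes with enough counts to be tested. RNA came from hepatocytes of 24 male C57BL/6J mice, isolated by liver perfusion. ND+veh mice (n = 8) ate a normal diet with vehicle throughout. HFD+veh mice (n = 7) were on that diet with vehicle from 4 months of age and, at 18 months, were given food with 60% of its calories from fat for 9 weeks. HFD+eRapa mice (n = 9) followed the same schedule but received rapamycin, an inhibitor of the nutrient-sensing kinase mTOR, at 42 ppm from 4 months. The rapamycin was encapsulated in a coat that dissolves in the gut. Rapamycin-treated animals on normal diet were not analysed here, so an effect of the drug apart from the fat-rich diet cannot be told apart from an effect on the response to that diet.

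PPARα is a nuclear receptor that binds fatty acids and pairs with RXR on DNA repeats in the control regions of its target genes. In hepatocytes it is best known for turning on fatty acid oxidation and ketone production during fasting. Acyl-CoA thioesterases split fatty acyl-CoA into free fatty acid and coenzyme A. Acot1 acts in the cytosol, Acot2 in mitochondria, and Acot3 and Acot4 in peroxisomes. PDK4 phosphorylates and shuts down pyruvate dehydrogenase, which spares glucose when fat is burnt. VNN1 releases pantothenate, the vitamin part of coenzyme A, from pantetheine. ANGPTL4 leaves the cell and blocks lipoprotein lipase, the enzyme that frees fatty acids from circulating triglyceride.

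The libraries held 17.7 to 25.9 M gene counts each (M, 1000000), and the smallest count among the 7 genes was 28, for Acot3 in HFD+eRapa replicate 9. Alb, the albumin gene of hepatocytes, lay at 33462 counts per M (CPM) or above in every library. Its mean was 93973 ± 20859 CPM in ND+veh, 103325 ± 8112 in HFD+veh and 67275.5 ± 18033 in HFD+eRapa (SD, n = 8, 7 and 9). These levels show abundant hepatocyte RNA, but they do not show how pure the isolates were. Other liver cells were present too. The summed level of 12 macrophage markers ran from 52.0 to 1518 CPM in ND+veh, from 174 to 6335 CPM in HFD+veh and from 19.3 to 1042 CPM in HFD+eRapa. Their part in the results was not tested by experiment, but each comparison was also fitted with a score of immune markers in the model. Calls of the 7 genes that this changed are given beside them. For some further lists only the number called in that fit is given, and for the receptor and cofactor genes it is not given. The immune score was highest in HFD+veh replicate 6. A fit without that library and ND+veh replicate 4, the lowest of its group for Acot1 and Acot3, is included among the other fits named below. In bulk RNA of this kind, fewer cells of a type and less RNA per cell cannot be told apart.

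The 4 thioesterase genes are neighbours. On mouse chromosome 12 (GRCm38, plus strand) they stand in the order Acot2 (83987861 to 83993873), Acot1 (84009490 to 84018371), Acot4 (84038379 to 84048601) and Acot3 (84052144 to 84060402), and Acot5 and Acot6 complete a cluster of 6 genes within 123 kb. Pdk4 lies on chromosome 6 (5483351 to 5496309, minus strand), Vnn1 on chromosome 10 (23894688 to 23905343, plus strand) and Angptl4 on chromosome 17 (33773750 to 33781830, minus strand). All are annotated as protein coding. The cluster arose by duplication, and its genes still share sequence. Of the stretches of 100 bases in Acot2 transcripts, 17.1% also occurred in Acot1 transcripts, and 9.32% of those of Acot1 occurred in Acot2. Acot3 and Acot4 are bridged by an annotated read-through gene, Gm49366, and an antisense gene crosses both. Exons of other genes covered 20.6% of the exonic bases of Acot3 and 9.71% of those of Acot4. Gm49366 had a count of 0 in all libraries, while its FPKM (fragments per kilobase of transcript and per M fragments) reached 5.37, so the counts and the FPKM divided these reads differently. Counts of the 4 thioesterases are therefore partly uncertain at shared stretches, and summed counts are given below. No such overlap was annotated for Pdk4, Vnn1 and Angptl4, and none of their stretches of 100 bases occurred in another gene.

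Start-site sequences from RefSeq (GRCm38.p6) were matched for 5 of the 7 genes. The 250 bases before each start site were searched on both strands for 2 copies of AGGTCA in the same direction with any 1 base between them, the repeat that PPARα and RXR bind together. The fewest mismatches over the 12 fixed positions were 2 for Acot4, 3 for Acot2 and 4 for Acot1, Acot3 and Pdk4. Among 32851 mouse promoters cut to the same length, 3.24% held a match with at most 2 mismatches, 21.3% with at most 3 and 74.5% with at most 4. A full half-site was present for Acot4, as it was in 14.0% of promoters. The windows of Acot1, Pdk4 and Acot4 are shown because the first 2 genes changed most on the high-fat diet, whereas Acot4, next to Acot1, was not called in any comparison. Each runs 5′ to 3′ along the gene, and the last base is the one before the start site. Capitals mark the first match found with the fewest mismatches. A window can hold others with as few, as that of Pdk4 does.
Acot1, chr12:84009252-84009501, plus strand: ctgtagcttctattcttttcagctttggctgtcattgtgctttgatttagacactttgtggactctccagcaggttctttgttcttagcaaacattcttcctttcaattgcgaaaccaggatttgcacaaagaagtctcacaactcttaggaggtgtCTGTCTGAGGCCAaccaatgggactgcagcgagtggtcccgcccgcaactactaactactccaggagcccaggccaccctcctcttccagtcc
Pdk4, chr6:5496279-5496528, minus strand: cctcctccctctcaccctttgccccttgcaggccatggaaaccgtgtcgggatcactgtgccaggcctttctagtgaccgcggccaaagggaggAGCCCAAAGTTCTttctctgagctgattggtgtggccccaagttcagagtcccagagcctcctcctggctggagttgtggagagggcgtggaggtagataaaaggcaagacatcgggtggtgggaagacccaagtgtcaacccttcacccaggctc
Acot4, chr12:84038129-84038378, plus strand: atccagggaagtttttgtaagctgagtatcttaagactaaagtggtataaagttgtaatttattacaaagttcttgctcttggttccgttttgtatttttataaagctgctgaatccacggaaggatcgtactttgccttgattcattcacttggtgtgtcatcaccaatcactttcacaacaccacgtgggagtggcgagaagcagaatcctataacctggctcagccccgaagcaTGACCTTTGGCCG
The capitals end 81 bases before the start site in Acot1 and 144 bases before it in Pdk4, on the strand shown. In Acot4 they adjoin the start site and read as the repeat on the opposite strand, as CGGCCAAAGGTCA. The closest match stood beside Acot4, which was not called. The next, with 3 mismatches, stood beside Acot2, which was called with rapamycin against HFD+veh. A match is a description of letters only, and binding was not tested.

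Levels were first compared between genes per length, on the FPKM scale. In ND+veh, Angptl4 was the most abundant gene, at 55.1 ± 32.6 FPKM (SD, n = 8), followed by Acot1 at 34.5 ± 12.3 and Vnn1 at 26.3 ± 13.1. Each of these neighbours in the order traded places in some animals, since Angptl4 exceeded Acot1 in 6 of 8 mice and Acot1 exceeded Vnn1 in 6 of 8. Acot4 (10.5 ± 1.64 FPKM), Pdk4 (9.26 ± 3.26), Acot3 (8.77 ± 6.08) and Acot2 (5.58 ± 2.52) followed within their spread. In HFD+veh the order was different. Vnn1, at 45.4 ± 11.3 FPKM (SD, n = 7), exceeded Angptl4 at 26.7 ± 7.07 in 7 of 7 animals, and Pdk4 was last at 2.26 ± 1.22, below Acot2 in 7 of 7. By its mean of 7.82 ± 3.49 FPKM, Acot1 dropped to the fourth place, behind Acot4 at 9.50 ± 5.18. Acot4 exceeded Acot1 in only 3 of 7 animals, however, and the Acot1 median of 9.15 FPKM stood above the Acot4 median of 8.31. In HFD+eRapa, Vnn1 (72.1 ± 20.7 FPKM, SD, n = 9) and Angptl4 (53.9 ± 18.8) again led, and Acot1 at 19.6 ± 6.72 exceeded Acot4 at 9.67 ± 3.03 in 9 of 9. Pdk4 stayed last, at 3.39 ± 2.50 FPKM.

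**Figure D1:**
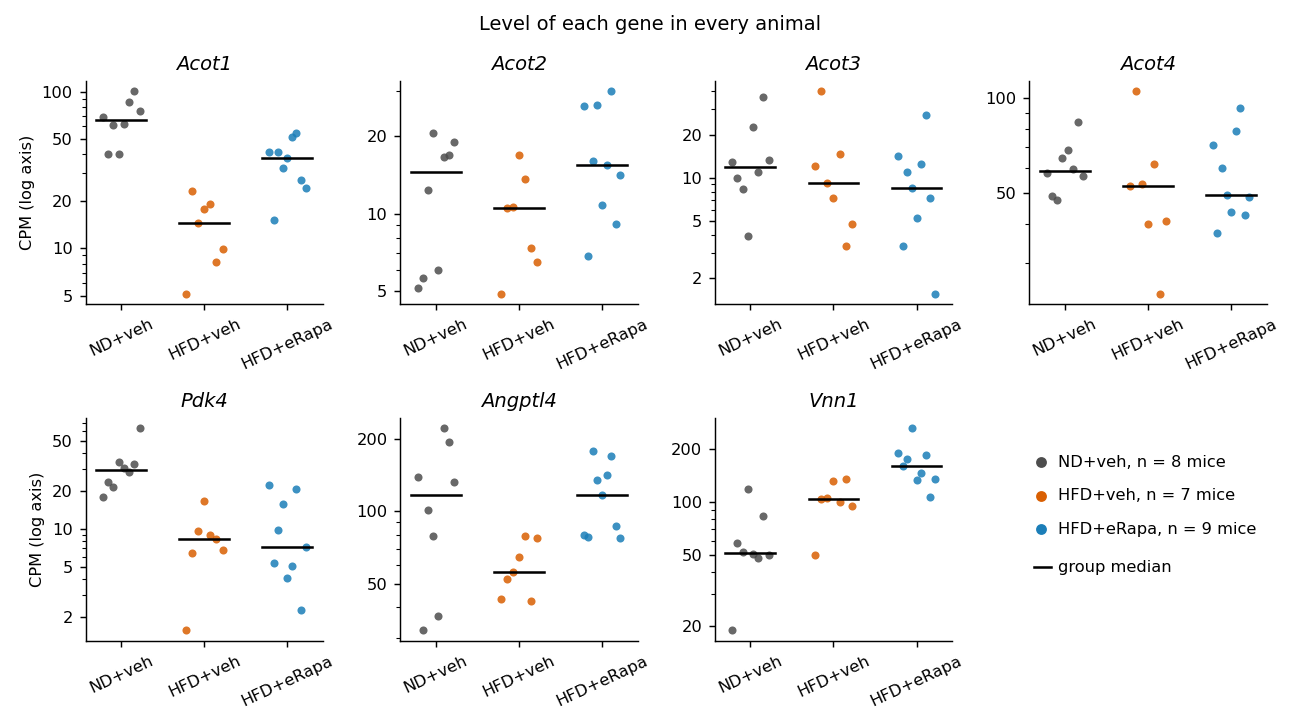
Counts per M (CPM) of the 7 genes in each mouse on a log axis, with 1 panel per gene, 1 point per animal and a bar at the group median. Acot1 and Pdk4 in HFD+veh lie below all ND+veh animals, Vnn1 in HFD+eRapa lies above nearly all ND+veh animals, and Acot3 and Acot4 overlap across the 3 groups.

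To ask what the fat-rich diet did to these genes, HFD+veh was compared with ND+veh. Acot1 fell 4.98-fold and Pdk4 fell 3.97-fold. Angptl4 also fell, Vnn1 rose, and Acot2, Acot3 and Acot4 did not pass the test. Thus 4 of the 7 genes were called (edgeR quasi-likelihood test, Benjamini-Hochberg adjusted p under 0.05 over all genes tested), 1 higher and 3 lower. Over all genes tested, 25.9% were called, 16.0% higher and 9.86% lower. The median log2 fold change was -0.37 over the 7 genes and 0.05 over all genes tested.

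Acot1 ranged from 39.7 to 100.5 CPM in ND+veh, with a median of 65.6. In HFD+veh it ranged from 5.14 to 23.2 CPM, with a median of 14.5. All 7 HFD+veh animals thus lay below the lowest ND+veh animal. The log2 fold change was -2.32 (SE 0.30, edgeR adjusted p = 2.27e-05), at rank 53 from the lowest of 13847 genes. Pdk4 showed the same lack of overlap. It ranged from 18.2 to 63.9 CPM in ND+veh (median 29.5) and from 1.56 to 16.8 CPM in HFD+veh (median 8.35), a log2 change of -1.99 (SE 0.44, edgeR adjusted p = 0.00338). Groups that do not overlap were found for 2 of the 7 genes and for 2.44% of all genes tested.

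Angptl4 differed less cleanly. The ND+veh animals spread from 32.1 to 221 CPM (median 117), whereas HFD+veh animals lay between 42.5 and 79.0 CPM (median 55.9). The 2 lowest ND+veh mice, replicates 2 and 5, lay below every HFD+veh mouse, and no HFD+veh mouse exceeded the ND+veh median. The log2 fold change was -1.0 (SE 0.34, edgeR adjusted p = 0.0350). The call was lost in 8 of 12 other fits, with adjusted p between 0.0533 (edgeR without ND+veh replicate 4 and HFD+veh replicate 6) and 0.238 (limma voom), and when ND+veh replicate 1, 6 or 7 or HFD+veh replicate 3, 4 or 6 was omitted (edgeR adjusted p 0.0529 to 0.0848). With the immune score in the model the log2 fold change was -1.14 (edgeR adjusted p = 0.0598).

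Vnn1 moved the other way. It ran from 18.8 to 119 CPM in ND+veh (median 51.4) and from 50.3 to 134 CPM in HFD+veh (median 103), and the ND+veh median was exceeded by 6 of 7 HFD+veh animals. The log2 fold change was 0.78 (SE 0.23, edgeR adjusted p = 0.0195). With the immune score added to the model it was 0.43 (edgeR adjusted p = 0.254), and it was 0.68 (edgeR adjusted p = 0.0663) without HFD+veh replicate 6.

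The remaining thioesterases overlapped between both groups. Acot2 ran from 5.13 to 20.7 CPM in ND+veh and from 4.86 to 16.9 in HFD+veh, with medians of 14.5 and 10.5 and a log2 fold change of -0.37 (95% interval -1.01 to 0.27). Acot3 medians were 11.9 and 9.17 CPM, with an interval of -1.32 to 0.83 around a log2 fold change of -0.25. Acot4 medians were 58.9 and 53.0 CPM, with an interval of -0.64 to 0.28 around -0.18. Acot3 ran from 3.95 to 36.6 CPM in ND+veh and from 3.36 to 40.1 CPM in HFD+veh, and Acot4 ran from 47.5 to 83.9 CPM and from 24.1 to 105 CPM. Most extremes fell on the same animals. ND+veh replicate 7 and HFD+veh replicate 2 were the highest of their groups for both genes, and HFD+veh replicate 6 was the lowest of its group for both. The lowest ND+veh animal differed, being replicate 4 for Acot3 and replicate 3 for Acot4. The intervals show how large a change could have been missed, which for Acot3 is over 2-fold in the lower direction.

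**Figure D2:**
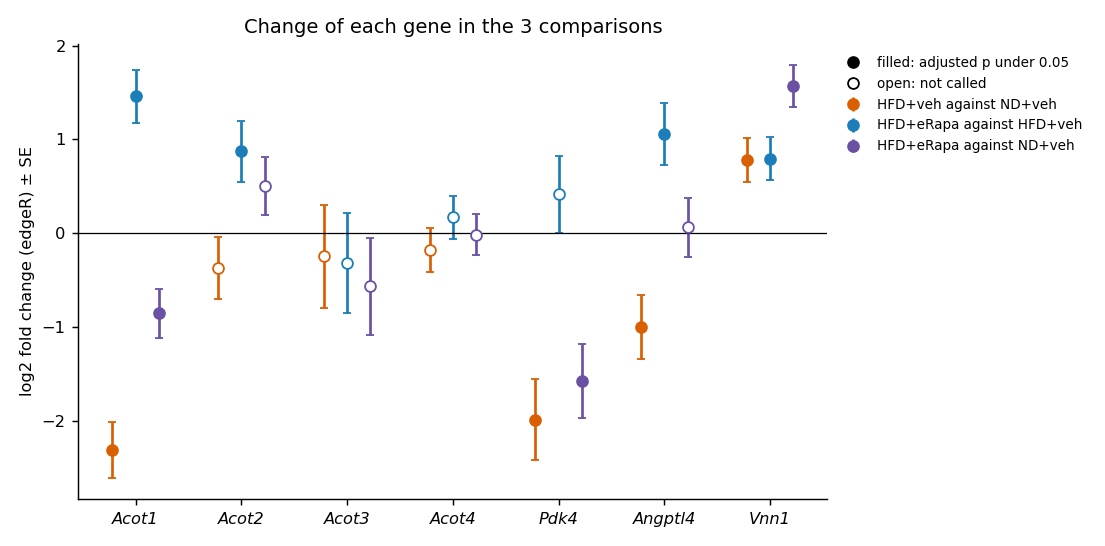
Log2 fold change from edgeR with its standard error (bars) for each gene in the 3 comparisons, with filled points for an adjusted p under 0.05. Acot1, Pdk4 and Angptl4 are negative and Vnn1 is positive on the high-fat diet, Acot1, Acot2, Angptl4 and Vnn1 are positive with rapamycin, and Pdk4 keeps a large negative value against the normal diet.

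The second comparison, HFD+eRapa against HFD+veh, asked whether these levels differed with rapamycin under the same diet. The paper reports that the treated mice weighed less than HFD+veh mice and that food intake was not measured. An effect of rapamycin on hepatocytes and one that follows from lower body weight cannot be told apart here. Acot1, Acot2, Angptl4 and Vnn1 rose, by 1.73-fold to 2.75-fold, and none of the 7 genes fell. Pdk4, Acot3 and Acot4 did not pass the test. Over all genes tested 32.0% were called, 10.9% higher and 21.1% lower, beside 4 called genes of the 7 that were all higher. The 7 genes and the further lists were chosen with earlier results of these data known. Shares set beside them, here and elsewhere, are therefore a description and not a test. The median log2 fold change was 0.79 over the 7 genes and -0.04 over all genes tested. The HFD+veh libraries enter both this comparison and the previous one, so the 2 sets of values are given side by side and are not independent.

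Acot1 in HFD+eRapa ranged from 15.2 to 54.1 CPM (median 37.8), against 5.14 to 23.2 in HFD+veh. Of the 9 treated animals, 8 lay above the highest HFD+veh animal, and replicate 2 lay within the HFD+veh range. The log2 fold change was 1.46 (SE 0.29, edgeR adjusted p = 0.000964), and it was called in all 12 other fits and after omission of any 1 library. Angptl4 ran from 77.9 to 177 CPM (median 117), with 7 of 9 animals above all HFD+veh animals and a log2 change of 1.06 (SE 0.34, edgeR adjusted p = 0.0189). With the immune score added to the model its adjusted p was 0.0568 (edgeR).

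Vnn1 was higher again than on high-fat diet with vehicle. The treated animals ran from 107 to 262 CPM (median 159), and 7 of 9 exceeded every HFD+veh animal. The log2 fold change was 0.79 (SE 0.23, edgeR adjusted p = 0.0115), and it was not called in limma fits of log2(FPKM + 1), with an adjusted p of 0.0689, or with a pseudocount of 0.1, with 0.0761. Acot2 ran from 6.82 to 30.1 CPM (median 15.5), with 3 of 9 animals above all HFD+veh animals. Its log2 change of 0.87 (SE 0.32, edgeR adjusted p = 0.0422) was the least secure of the 4, since 7 of 12 other fits and the omission of HFD+veh replicate 1, 2, 3, 6 or 7 or HFD+eRapa replicate 1, 3, 4, 6 or 7 took the call away (edgeR adjusted p 0.0504 to 0.0819 over those libraries).

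Pdk4 did not follow the others. In HFD+eRapa it spread from 2.28 to 22.5 CPM, with a median of 7.25 that was no higher than the HFD+veh median of 8.35. The log2 fold change was 0.41 (SE 0.41, 95% interval -0.39 to 1.22, edgeR adjusted p = 0.468). With the immune score added to the model it was 1.3 (edgeR adjusted p = 0.0271), the only fit of the 12 in which it was called. Acot3 ran from 1.56 to 27.2 CPM and Acot4 from 37.5 to 93.3 CPM, with log2 fold changes of -0.32 (95% interval -1.36 to 0.72) and 0.17 (-0.28 to 0.61). None of the 7 genes had groups that did not overlap, against 2.59% of all genes tested.

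HFD+eRapa was then compared with ND+veh to ask how far the treated animals on fat-rich food were from untreated animals on normal food. Vnn1 was higher, Pdk4 and Acot1 were lower, and the other 4 genes did not pass the test. This made 3 of 7 called, 1 higher and 2 lower, where 13.5% of all genes were called, 6.93% higher and 6.54% lower. For Vnn1 the log2 fold change was 1.57 (SE 0.23, edgeR adjusted p = 4.68e-05), and 8 of 9 treated animals exceeded the highest ND+veh mouse by their CPM. On the log2 CPM scale, which takes TMM scaling into account, its groups did not overlap, as for 3.37% of all genes tested. No other gene of the 7 had such a separation here.

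Pdk4 remained at a log2 fold change of -1.58 against ND+veh (SE 0.39, edgeR adjusted p = 0.00841), with 7 of 9 treated animals below the lowest ND+veh animal. The call was lost in 1 of 12 other fits, that with a replicate block (edgeR adjusted p = 0.0512). Acot1 was at -0.86 (SE 0.26, edgeR adjusted p = 0.0312), with 5 of 9 below. The Acot1 call was lost in 4 of 12 other fits and without ND+veh replicate 6, 7 or 8 or HFD+eRapa replicate 2, 8 or 9 (edgeR adjusted p 0.0514 to 0.0753). Angptl4 lay close to the normal-diet level, at 0.06 (95% interval -0.56 to 0.68), as did Acot4 at -0.01 (-0.44 to 0.41). Acot2 was at 0.50 (-0.10 to 1.1) and Acot3 at -0.57 (-1.58 to 0.44).

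Because the thioesterases share sequence, their sums and shares were also examined. The counts of Acot1 and Acot2 together gave log2 fold changes of -1.78 (SE 0.27) in HFD+veh against ND+veh, 1.24 (SE 0.26) in HFD+eRapa against HFD+veh and -0.54 (SE 0.24) in HFD+eRapa against ND+veh. Reads passed from one of the pair to the other would leave these sums as they are. Reads dropped at shared stretches would be missing from the sums as well, so the sums do not settle that uncertainty. With all 4 genes summed the values were -0.80 (SE 0.26), 0.48 (SE 0.25) and -0.31 (SE 0.24). These are values without a call.

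The make-up of the cluster by FPKM shifted with Acot1. The shares leave out the FPKM of the read-through gene Gm49366, which overlaps Acot3 and Acot4. Its median FPKM was 1.43 in ND+veh, 1.52 in HFD+veh and 1.06 in HFD+eRapa, so the shares of Acot3 and Acot4 are partly uncertain. Acot1 supplied 57.5 ± 6.33% of the summed FPKM of Acot1 to Acot4 in ND+veh (SD, n = 8), 28.5 ± 11% in HFD+veh (n = 7) and 47.3 ± 4.30% in HFD+eRapa (n = 9, SD throughout). No HFD+veh animal, at 43.0% or less, reached the lowest ND+veh animal at 45.3%. Acot4 supplied 18.7 ± 4.29%, 32.9 ± 7.17% and 23.8 ± 3.56% in the same order. The summed FPKM was 59.4 ± 19.1 in ND+veh, 29.1 ± 14.9 in HFD+veh and 42.0 ± 16.1 in HFD+eRapa. The ratio of the cytosolic to the mitochondrial enzyme, Acot1 over Acot2, had a median of 6.86 in ND+veh (range 2.10 to 13.7), 1.71 in HFD+veh (1.14 to 2.2) and 2.70 in HFD+eRapa (1.86 to 4.30), so each group overlapped the others. Acot5 was at 0.139 CPM or less in all libraries and was not tested, and Acot6 lay between 0.284 and 2.08 CPM and was not called.

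**Figure D3:**
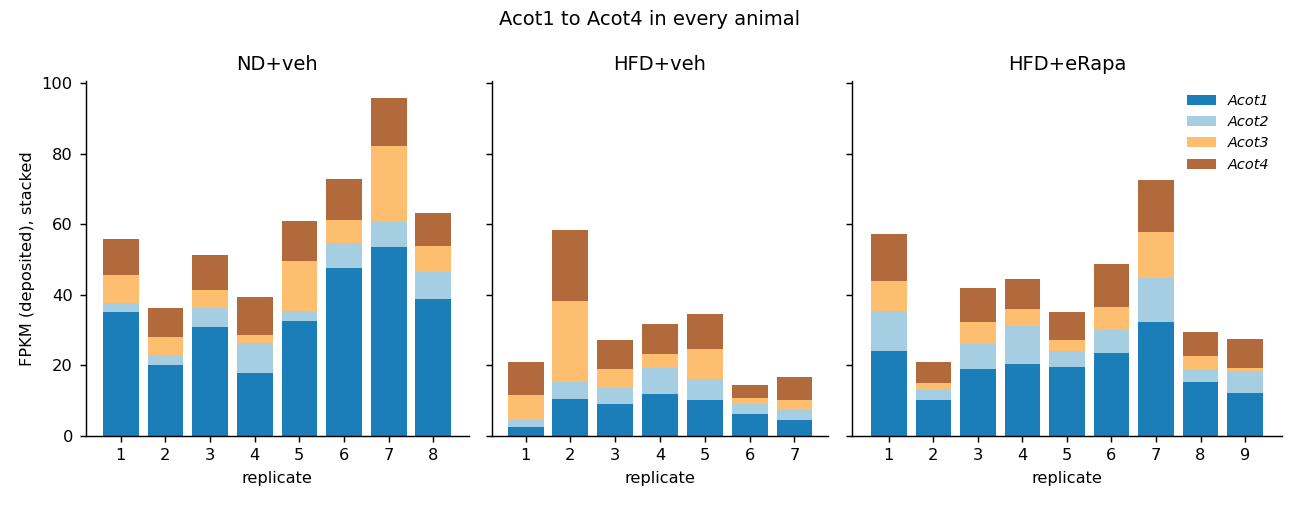
Stacked deposited FPKM of Acot1 to Acot4, with 1 bar per animal and 1 panel per group. The Acot1 segment is the largest in the ND+veh bars and is much smaller in HFD+veh, where HFD+veh replicate 2 stands out by its Acot3 and Acot4 segments.

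Within a group, some of these genes rose and fell together from animal to animal. Correlations were taken over all 24 libraries after each group's mean was subtracted from log2 CPM, and p came from 100000 permutations within groups. Of 21 pairs, 8 passed an adjusted p of 0.05 by Pearson's r, all of them positive. How many pairs of other genes would pass was not examined, so the count does not show a trait particular to these genes. The closest pair was the neighbours Acot3 and Acot4 (r = 0.85, rho = 0.90, permutation p = 1e-05 for both, the smallest that could be reached, adjusted p = 0.00021), and r was 0.94 without the 2 libraries farthest from the Acot3 median. Both genes overlap Gm49366, whose part in this pair was not tested. Acot2 and Pdk4, on different chromosomes and with no shared stretch of 100 bases, followed (r = 0.71, rho = 0.76, permutation p = 2e-05, adjusted p = 0.00021, r = 0.72 without the 2 farthest libraries).

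Acot1 varied with Acot3 (r = 0.71, rho = 0.69, permutation p = 0.00038 and 0.00073, adjusted p = 0.00266 and 0.00511, r = 0.79 without the 2 farthest libraries). Acot1 and Acot2 had r = 0.53 (rho = 0.56, permutation p = 0.0106 and 0.0046, adjusted p = 0.0278 and 0.0138, r = 0.63 without the 2 farthest). Acot1 and Acot4 had r = 0.62 (rho = 0.66, permutation p = 0.00329 and 0.00151, adjusted p = 0.0115 and 0.00634, r = 0.78 without the 2 farthest). Acot1 and Angptl4 had r = 0.58 (rho = 0.61, permutation p = 0.00256 and 0.0015, adjusted p = 0.0108 and 0.00634, r = 0.59 without the 2 farthest). Vnn1 varied with Pdk4 (r = 0.55, rho = 0.61, permutation p = 0.00203 and 0.00266, adjusted p = 0.0107 and 0.00931), but r was 0.41 without the 2 farthest libraries. With Acot2 it passed by Pearson's r alone (r = 0.55, rho = 0.43, permutation p = 0.00855 and 0.0529, adjusted p = 0.0256 and 0.123, r = 0.51 without the 2 farthest libraries). Its r was 0.03 with Acot1, -0.03 with Acot3, -0.05 with Acot4 and -0.05 with Angptl4, none of which passed. The spread itself also set the genes apart. The SD of log2 CPM among animals of a group was 1.08 to 1.17 for Acot3, above 88.8% or more of genes tested in each group, and 0.33 to 0.69 for Acot4.

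**Figure D4:**
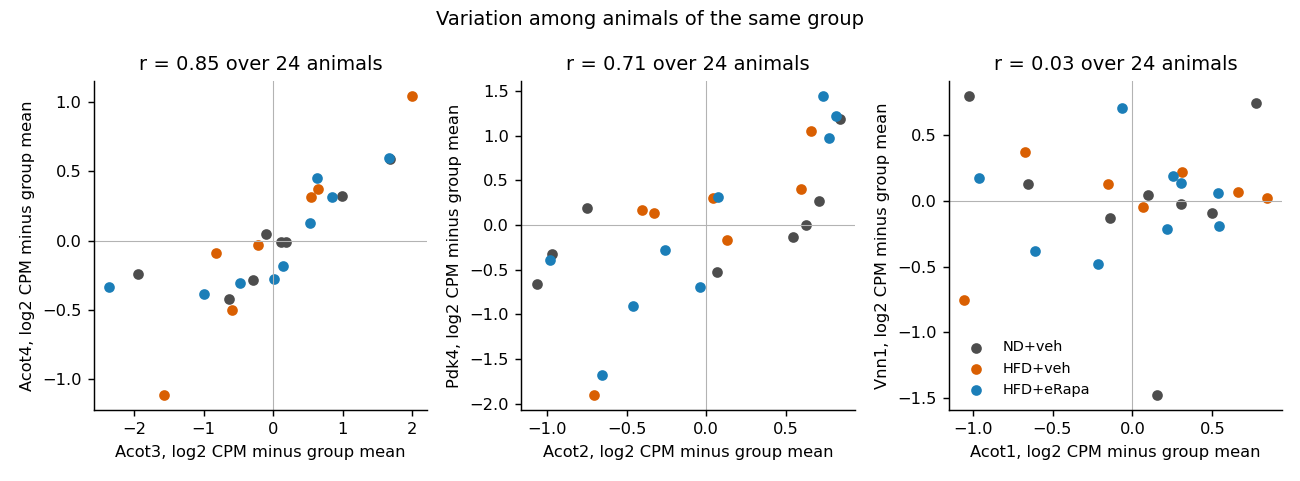
Log2 CPM of 3 pairs of genes in each of 24 animals after subtraction of the group mean, coloured by group, with Pearson's r above each panel. Acot3 with Acot4 (r = 0.85) and Acot2 with Pdk4 (r = 0.71) lie along a rising line, and Acot1 with Vnn1 (r = 0.03) do not.

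Genes with the most similar pattern were sought by the mean absolute difference of z-scored log2 CPM over the 24 libraries, among 10313 genes. The median of that distance over genes was 1.12 to 1.15. Closest to Acot1 were Avpr1a at 0.32, a vasopressin receptor gene, Tmem98 at 0.36 and Dlat at 0.36, a core subunit of pyruvate dehydrogenase. Closest to Pdk4 were Ptpn9 at 0.35, Ndrg1 at 0.41 and Igfbp1 at 0.42, an insulin-repressed binding protein. Vnn1 was closest to Mogat1 at 0.33, a monoacylglycerol acyltransferase, Tbc1d31 at 0.37 and Nln at 0.41. Angptl4 was closest to Lpin2 at 0.41, a phosphatidate phosphatase, Mbd1 at 0.46 and Lurap1l at 0.48. Acot3 and Acot4 were each other's closest gene at 0.45, and Acot2 had no gene nearer than Dnmbp at 0.53, with Ppp2r2d at 0.55 and Cidec at 0.58.

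The receptors that act on these genes were examined next. Ppara, which encodes PPARα, ran from 44.3 to 100.1 CPM in ND+veh (median 74.9), from 32.3 to 130 CPM in HFD+veh (median 47.3) and from 87.1 to 161 CPM in HFD+eRapa (median 109). It was not called in HFD+veh against ND+veh (log2 fold change -0.35, edgeR adjusted p = 0.276). With rapamycin it rose, by 1.06 against HFD+veh (SE 0.24, edgeR adjusted p = 0.00236) and by 0.71 against ND+veh (SE 0.22, edgeR adjusted p = 0.0363). Its partner Rxra rose against HFD+veh (0.55, SE 0.20, edgeR adjusted p = 0.0364). Ppard, the gene of the related receptor PPARδ, fell on the high-fat diet from 25.6 ± 9.45 to 8.31 ± 3.29 CPM (SD, n = 8 and 7), with a log2 change of -1.63 (SE 0.29, edgeR adjusted p = 0.000513). It was still lower in HFD+eRapa than in ND+veh, at -2.05 (SE 0.27, edgeR adjusted p = 1.39e-05). Pparg was not called in any comparison, with means of 11.9, 16.5 and 17.6 CPM. Of the cofactor genes, Ppargc1b was higher on the high-fat diet (0.67, SE 0.23, edgeR adjusted p = 0.0389) and Ppargc1a was lower with rapamycin than in HFD+veh (-0.89, SE 0.23, edgeR adjusted p = 0.00525). Of all 11 receptor and cofactor genes, 2, 3 and 3 were called in the 3 comparisons in the order above. The shares over all genes tested were 25.9%, 32.0% and 13.5%. Results of the fit with the immune score are not given for these receptor and cofactor genes.

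Few PPARα target genes of fatty acid oxidation were called on the high-fat diet, where 25.9% of all genes tested were called. Of 18 genes of mitochondrial fatty acid oxidation and ketone production, 1 was called in HFD+veh against ND+veh, which was Ucp2, an uncoupling protein gene also abundant in macrophages (2.21, SE 0.61, edgeR adjusted p = 0.0129). Of 13 genes of peroxisomal oxidation, 1 was called, Eci2, which fell (-0.59, SE 0.14, edgeR adjusted p = 0.00483). The median log2 fold changes were 0.09 and -0.04, beside 0.05 over all genes tested. With rapamycin, 15 of the 18 mitochondrial genes rose against HFD+veh and 1 fell, and 10 of the 13 peroxisomal genes rose and 0 fell (edgeR, adjusted p under 0.05), with medians of 0.61 and 0.73 beside -0.04 over all genes. With the immune score in the model, where the genes called in this comparison went from 4432 to 934, 10 of the 18 and 10 of the 13 rose and 0 fell.

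Among them the ketone body dehydrogenase gene Bdh1 (0.85, SE 0.15) and the peroxisomal genes Pex11a (1.15, SE 0.15), Eci2 (1.1, SE 0.14) and Acaa1a (1.02, SE 0.20) rose. Ucp2 was the gene that fell (-2.03, SE 0.58, edgeR adjusted p = 0.0108). Against ND+veh, 15 of 18 and 9 of 13 were higher with rapamycin and 0 were lower. Most of these oxidation genes were thus above the normal-diet level in treated animals, in which Pdk4 and Acot1 were below it.

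A further list held 25 target genes of fatty acid uptake, binding, storage and hydroxylation. On the high-fat diet 4 rose and 4 fell, with a median of -0.40, beside 16.0% higher and 9.86% lower over all genes tested. Fgf21, a fasting hormone gene, fell from 43.5 ± 39.1 to 7.86 ± 3.56 CPM (log2 fold change -2.50, SE 0.47, edgeR adjusted p = 0.00091), and the fatty aldehyde dehydrogenase gene Aldh3a2 and Cyp4a32 fell by 0.63 and 0.50 on the log2 scale. The fatty acid transporter gene Cd36 (1.97), the lipase gene Lpl (2.52) and the lipid droplet gene Cidea (1.98) rose. With rapamycin 14 rose and 3 fell against HFD+veh, with a median of 0.61, beside 10.9% higher and 21.1% lower over all genes tested. Those that rose most were the droplet genes Cidea (4.16, SE 0.65), Fitm1 (2.28, SE 0.33) and Cidec (1.96, SE 0.41), and Lpl (-3.34), Cd36 (-1.25) and Hilpda (-0.75) fell. The summed level of 6 adipocyte markers moved with the droplet genes. It ran from 0.451 to 5.46 CPM in ND+veh, from 3.62 to 51 CPM in HFD+veh and from 22.7 to 71.9 CPM in HFD+eRapa, so every HFD+eRapa library lay above every ND+veh library. Adipoq and Lep were at 0 in all ND+veh libraries, Lep in all HFD+eRapa libraries and Retn in all HFD+veh libraries. Only Cfd and Fabp4 were abundant enough to be tested, and against HFD+veh Cfd rose (5.79, SE 0.43, edgeR adjusted p = 1.43e-08) and Fabp4 fell (-1.64, SE 0.57, edgeR adjusted p = 0.0316). The part of adipocytes in these values was not tested. Fgf21 was not called with rapamycin against HFD+veh and stayed below ND+veh (-2.35, SE 0.42, edgeR adjusted p = 0.000514), as Pdk4 did. Against ND+veh, 10 of the 25 were higher and 1 was lower, beside 6.93% higher and 6.54% lower over all genes tested. In the fit that held the immune score, 0 of the 25 rose and 2 fell on the high-fat diet. There 12 rose and 0 fell with rapamycin against HFD+veh. Over 13847 genes, that fit called 1189 on the high-fat diet and 934 with rapamycin.

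**Figure D5:**
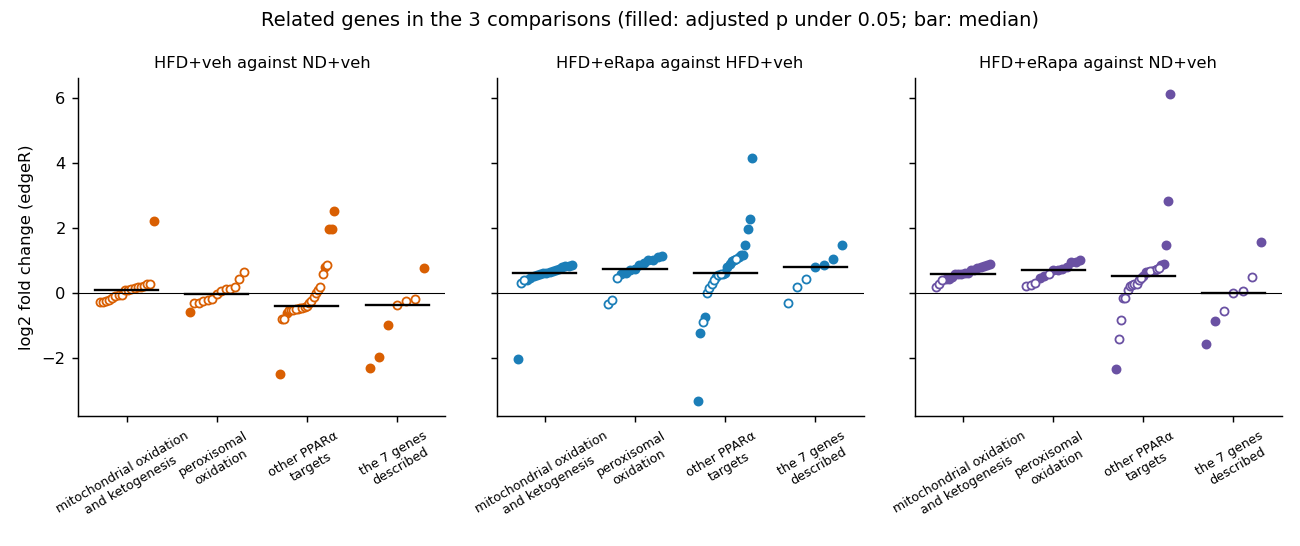
Log2 fold change from edgeR for each gene of 3 lists of related PPARα targets and for the 7 genes described, in the 3 comparisons, with filled points for an adjusted p under 0.05 and a bar at each list's median. The oxidation lists centre near 0 on the high-fat diet and at 0.61 and 0.73 with rapamycin.

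Genes that share a pathway with a single member were also counted. The counts here and in the next paragraph stand beside 25.9%, 32.0% and 13.5% of all genes tested, called in the 3 comparisons in turn. Of 11 genes of pyruvate dehydrogenase and its kinases and phosphatases, 2 rose and 2 fell on the high-fat diet. Dlat fell from 87.2 ± 18.1 to 41.0 ± 10.4 CPM (log2 fold change -1.12, SE 0.17, edgeR adjusted p = 0.000164) and Pdk1 fell by 0.48 on the log2 scale, in the same direction as Pdk4. The genes that rose were Dld (0.36) and Pdk3, a further kinase gene named here after its values were seen, which lay below the level set for naming. Pdk3 was at 0.357 ± 0.28 CPM in ND+veh and 2.26 ± 3.13 CPM in HFD+veh (log2 fold change 2.57, SE 0.66, edgeR adjusted p = 0.00879). With rapamycin 3 rose and 2 fell against HFD+veh, among them Dlat (0.46), Pdha1 (0.45) and the phosphatase gene Pdp2 (0.60), which rose. Against ND+veh 3 were higher and 1, Dlat, was lower. Of 11 genes of pantothenate and coenzyme A metabolism, Vnn3, the neighbouring pantetheinase gene of Vnn1, rose with the high-fat diet (0.41, edgeR adjusted p = 0.0312) and, unlike Vnn1, fell with rapamycin (-0.52, edgeR adjusted p = 0.00562). Pank1, which starts coenzyme A synthesis, rose with rapamycin (0.67, edgeR adjusted p = 0.00537), as did Nudt7, which breaks coenzyme A down in peroxisomes (1.16, edgeR adjusted p = 0.0134). With the immune score in the model, the calls of Vnn3, Pank1 and Nudt7 with rapamycin were lost, as counted in the next paragraph.

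Of 8 genes of the angiopoietin-like and lipase families, 1 rose and 2 fell on the high-fat diet, and 0 rose and 2 fell with rapamycin against HFD+veh, so none rose with Angptl4. Against ND+veh 3 were lower in HFD+eRapa, among them Angptl8 (-1.83, SE 0.58, edgeR adjusted p = 0.0366), whose protein acts on the same lipase in the fed state. Of 17 genes that respond to fasting, FOXO factors or glucocorticoids, 2 rose and 4 fell on the high-fat diet. The largest fall was that of Igfbp1, from 199 ± 172 to 28.4 ± 14.6 CPM (log2 fold change -2.84, SE 0.58, edgeR adjusted p = 0.00216), followed by that of the insulin receptor substrate gene Irs2 (-2.08, SE 0.32). With rapamycin 2 rose and 2 fell, Irs2 (1.18) and Cebpb (0.97) upwards and Sgk1 (-1.63) and Sesn1 (-0.83) downwards. Both Igfbp1 (-1.68) and Irs2 (-0.90) remained below ND+veh, and 0 of the 17 were higher and 4 lower in that comparison. Of 9 further thioesterase genes tested, 2 rose on the high-fat diet, Acot9 (1.69, SE 0.45) and Acot13 (0.46, SE 0.16). With rapamycin against HFD+veh 3 rose, Acot12 (0.50), Acot8 (0.47) and Them4 (0.45), and Acot9 fell (-1.60). Once the immune score was in the model, 1 gene each of the pyruvate dehydrogenase, coenzyme A and thioesterase lists, 2 of the angiopoietin-like and lipase list and 3 of the fasting list were called on the high-fat diet. With rapamycin against HFD+veh they numbered 1, 0, 2, 1 and 2 in the same order. Over 13847 genes, that fit called 1189 on the high-fat diet and 934 with rapamycin.

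Markers of position in the lobule and of other cells moved in the same comparisons. Of 8 pericentral hepatocyte markers, 5 fell on the high-fat diet and 7 rose with rapamycin, and their summed level ran from 6282 to 10136 CPM in ND+veh, from 917 to 6961 in HFD+veh and from 5433 to 10068 in HFD+eRapa. Cyp2e1, for example, had log2 fold changes of -1.93 (SE 0.32, edgeR adjusted p = 0.00036) and 2.04 (SE 0.32, edgeR adjusted p = 0.00014). Of 8 periportal markers, 6 rose on the high-fat diet and 5 fell with rapamycin. Of 13 general hepatocyte markers, 3, 1 and 0 were called in the 3 comparisons, beside 25.9%, 32.0% and 13.5% of all genes tested. The immune marker score lay between -1.20 and 0.76 in ND+veh, between -0.46 and 1.60 in HFD+veh and between -1.60 and 0.59 in HFD+eRapa, in units of SD. Of the macrophage markers 4 of 12 rose on the high-fat diet and 10 of 12 fell with rapamycin, and of 10 stellate cell and 9 endothelial markers all fell with rapamycin. The immune score is built from the macrophage and other leukocyte markers, so the macrophage list cannot be read in the fit that held it. In that fit 0 stellate cell and endothelial markers were called with rapamycin. Of the pericentral markers 4 were called on the high-fat diet and 3 with rapamycin. Over 13847 genes, that fit called 1189 on the high-fat diet and 934 with rapamycin. Acot1, which moved in the direction of the pericentral markers, was called in the fit that held the immune score in each of the first 2 comparisons. The part of zonation in its change was not tested.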

How the data were processed

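Poly(A) RNA of perfused hepatocytes was sequenced from 24 mice in 3 groups, which were taken with their replicate numbers from the sample labels, and 1 batch label covers every library. The authors aligned reads to mm10 with STAR (Gencode M23), filtered them with SAMtools 1.1.0 and counted them per gene with HTSeq 0.11.2. The deposited counts are whole numbers and were not normalized. The deposited FPKM values came from Cufflinks. Whether counting used strand is not given in the sources used here.

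Counts were tested with edgeR 4.0.16 in R 4.3.3 (filterByExpr, TMM, robust glmQLFit, glmQLFTest) in a single fit of 24 libraries without covariates. Genes with a Benjamini-Hochberg adjusted p under 0.05 over 13847 genes are termed called. SE is the absolute log2 fold change over the square root of F, and 95% intervals are 1.96 SE on each side. CPM is counts over the library total, and log2 CPM used TMM and a prior count of 2. P-values measure the spread between animals. No pair of libraries of the same group agreed within sampling noise (chi-square per degree of freedom of at least 11.3). The lowest value was that of HFD+veh replicates 3 and 4, which were more alike than the other HFD+veh pairs, at 53.0 or above. The fits were tested on simulated counts.

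The immune marker score is the mean z-score of 18 leukocyte markers. Other fits were DESeq2 1.42.0, limma 3.58.1 voom, limma on FPKM with pseudocounts of 1 and 0.1, other scalings and filters, the 2 groups alone, a replicate block, that score as covariate, and omission of libraries. Gene positions and transcripts came from Gencode M21 (GRCm38, the assembly of mm10). The 7 genes and the 19 further lists (228 genes, 227 in the tables) were chosen with earlier results of these data known. Named were the 7 genes, Ppara, Ppard, Pparg and Rxra, up to 3 called rises and 3 called falls per list and comparison with a mean log2 CPM of at least 1, and the 3 genes most like each of the 7. Some genes that this rule names are not reported here.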

Additional observations from a re-analysis of the deposited data

Results flagged for a closer look

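Within each group and for each of the 7 genes, the lowest and highest animal were compared with the rest by Dixon's ratio on log2 CPM. This gave 21 groups of animals, of which chance would mark about 1 in 20, or 1.05 in all, and 3 were marked. Pdk4 in HFD+veh replicate 1 was far below the others, at a log2 CPM of 0.90 (1.56 CPM), with the next animal at 2.64. Vnn1 was far below the others in HFD+veh replicate 1, at a log2 CPM of 5.84 (50.3 CPM), with the next at 6.54, and in ND+veh replicate 1, at a log2 CPM of 4.25 (18.8 CPM), with the next at 5.59. HFD+veh replicate 1 was also the lowest of its group for Acot1 and Acot2. Without it, the log2 fold change of Acot1 in HFD+veh against ND+veh was -2.19 and that of Pdk4 was -1.82, both still called by edgeR.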

How the results depend on the processing

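Over 12 other fits, Acot1 and Pdk4 stayed called lower in HFD+veh against ND+veh, as did the rise of Acot1 with rapamycin and that of Vnn1 in HFD+eRapa against ND+veh. The number of the 7 genes called was 4, 4 and 3. It was 2 in HFD+veh against ND+veh with the immune marker score as covariate, 2 to 4 there when 1 library was omitted, 2 in HFD+eRapa against HFD+veh on log2(FPKM + 1) and on log2(FPKM + 0.1), and 1 in HFD+eRapa against ND+veh with a replicate block. The cause of these changes was not tested. Replicate numbers are shared between groups but name different animals, and same-numbered libraries deviated together with a mean r of 0.32, -0.24 and -0.20 and correlated best with their own number in 2 of 7, 0 of 7 and 0 of 8 pairs, so the block carries no pairing. Signs changed only for log2 fold changes that were not called. In HFD+veh against ND+veh these were Acot2 with voom (0.018) and Acot3 with the marker score (0.00051). In HFD+eRapa against HFD+veh they were Acot3 with the replicate block (0.0052) and Acot4 with the marker score (-0.034). In HFD+eRapa against ND+veh they were Acot4 with voom (0.0057) and with the block (0.038), and Angptl4 without ND+veh replicate 4 and HFD+veh replicate 6 together (-0.021). With 1 library omitted, Acot3 ran from -0.83 to 0.12 and from -0.62 to 0.26 in the first 2 comparisons, and in the third Acot4 ran from -0.10 to 0.086 and Angptl4 from -0.082 to 0.27. Low counts limited Acot6, and among the 7 genes the intervals of Acot3 were the widest. Acot3 reached 0.26 in HFD+eRapa against HFD+veh without HFD+veh replicate 2.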
